A study of Drosophila melanogaster with 6 samples.

Results

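DNA replication licensing and fork genes were examined in the salivary gland (SG) of Drosophila melanogaster larvae and in larval brains plus imaginal discs (B-D). The members were the rows of the deposited gene count table whose symbol was on a list of 36 names or began with RfC or DNApol-. This gave 48 of 17493 genes, and 1 listed name, lat, was absent from the table. Of the 48 genes, 47 had enough reads for the test. SG cells endoreplicate, which means that they copy their DNA repeatedly without dividing. They are named devECs in the study, for developmental endocycling cells. B-D holds many cells in mitotic cycles. Both tissues came from the same y1 w67c23 larvae, which carry no transgene. Eggs were laid over 6 h, and animals kept at 25 °C were dissected 4 days later as larvae that were still feeding, early in the last instar. The 3 libraries per tissue were made from polyadenylated RNA. The comparison asks how transcripts for DNA replication differ between a tissue in endocycles and a tissue in mitotic cycles. Cycle type and tissue identity change together here, so their parts cannot be told apart.

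Replication starts at origins bound by the origin recognition complex (ORC). In the licensing step ORC, Cdc6 and the Cdt1 protein, which is encoded by dup in flies, load the MCM helicase onto DNA. The Cdc7 kinase and its activator, encoded by chif, then help to recruit Cdc45 and the GINS complex, and the assembled CMG helicase unwinds the fork. Polymerase alpha with primase lays down primers, polymerase epsilon and polymerase delta extend them, and the PCNA clamp, loaded by replication factor C (RFC), holds the polymerases on DNA. Endocycling cells repeat licensing and S phase in every cycle, as mitotic cells do, but skip mitosis. Many of these genes are targets of the transcription factor E2F1.

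Total gene counts were 45023997 to 55892356 in SG and 45370626 to 56583711 in B-D. The fewest reads behind any tested member were 64, for tos in SG replicate 2. Levels are given as scaled CPM, which is counts relative to the library total (CPM) after trimmed mean of M values (TMM) scaling. Fold changes are SG over B-D. Calls needed an adjusted p no higher than 0.05 together with an absolute log2 fold change no lower than 0.5. TMM factors were 0.664 to 0.700 in SG and 1.458 to 1.466 in B-D, so the scale matters here. The 10 most abundant genes took 28 to 31.2% of the counts in SG and 12.9 to 13.7% in B-D. Glue protein and other salivary gland markers summed to 17500 to 67000 scaled CPM in SG against 279 to 745 in B-D, and 8 of 12 were called higher in SG. Fat body markers summed to 164000 to 255000 scaled CPM in SG against 392 to 3760 in B-D, and all 6 were called higher in SG. Neuron markers summed to 262 to 426 scaled CPM in SG against 2050 to 2530 in B-D, and imaginal disc markers to 193 to 213 in SG against 482 to 492 in B-D. Of the disc sum, the gene sd alone made up 153 to 165 in SG and 272 to 284 in B-D. This gene was named after its value was seen. No defining marker of the fat body, neuron or disc lists was at the floor of 3 counts in all SG libraries, and their part in the results below was not tested.

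Most replication transcripts were lower in SG, and a smaller set that includes Cdc6 and part of GINS was higher. Of the 47 tested members, 25 were called lower in SG, 5 were called higher and 17 were not called (edgeR, Benjamini-Hochberg over all 11369 genes tested). The lower calls were 53.2% of the members against 35.3% of all genes tested, and the higher calls were 10.6% of the members against 34.5% of all genes tested. The median log2 fold change was -0.57 over the members and -0.03 over all genes tested. Members ranged from -1.78 for tos to 1.39 for awd. All SG libraries lay below all B-D libraries for 29 of the 47 tested members, a larger share than the 41.3% of all genes tested. They lay above them for 10 of the 47, a smaller share than the 39.9% of all genes tested. In 8 members the libraries overlapped. Scaled CPM is relative to the other transcripts in a library and is not a level per cell. In bulk tissue, fewer cells in S phase, less of a transcript per cell and dilution by other abundant transcripts cannot be told apart.

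The scale moved the calls. With library size as the only scale, 42 members were called lower in SG and 0 higher, and 5 were not called. On that scale 62.5% of all genes tested were called lower in SG and 14.0% higher, and the median log2 fold change was -1.67 for the members and -1.13 for all genes tested. The distance of the members' median from that of all genes was -0.54 on either scale. A change of scale shifts all genes nearly alike, so this distance does not test the scale. Each direction below is therefore on the TMM scale, relative to the average gene. Of the 5 genes called higher, Cdc6 and awd kept a positive log2 fold change with library size alone, 0.10 and 0.29, without a call, and Psf1, Psf2 and RnrS turned negative.

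**Figure D1:**
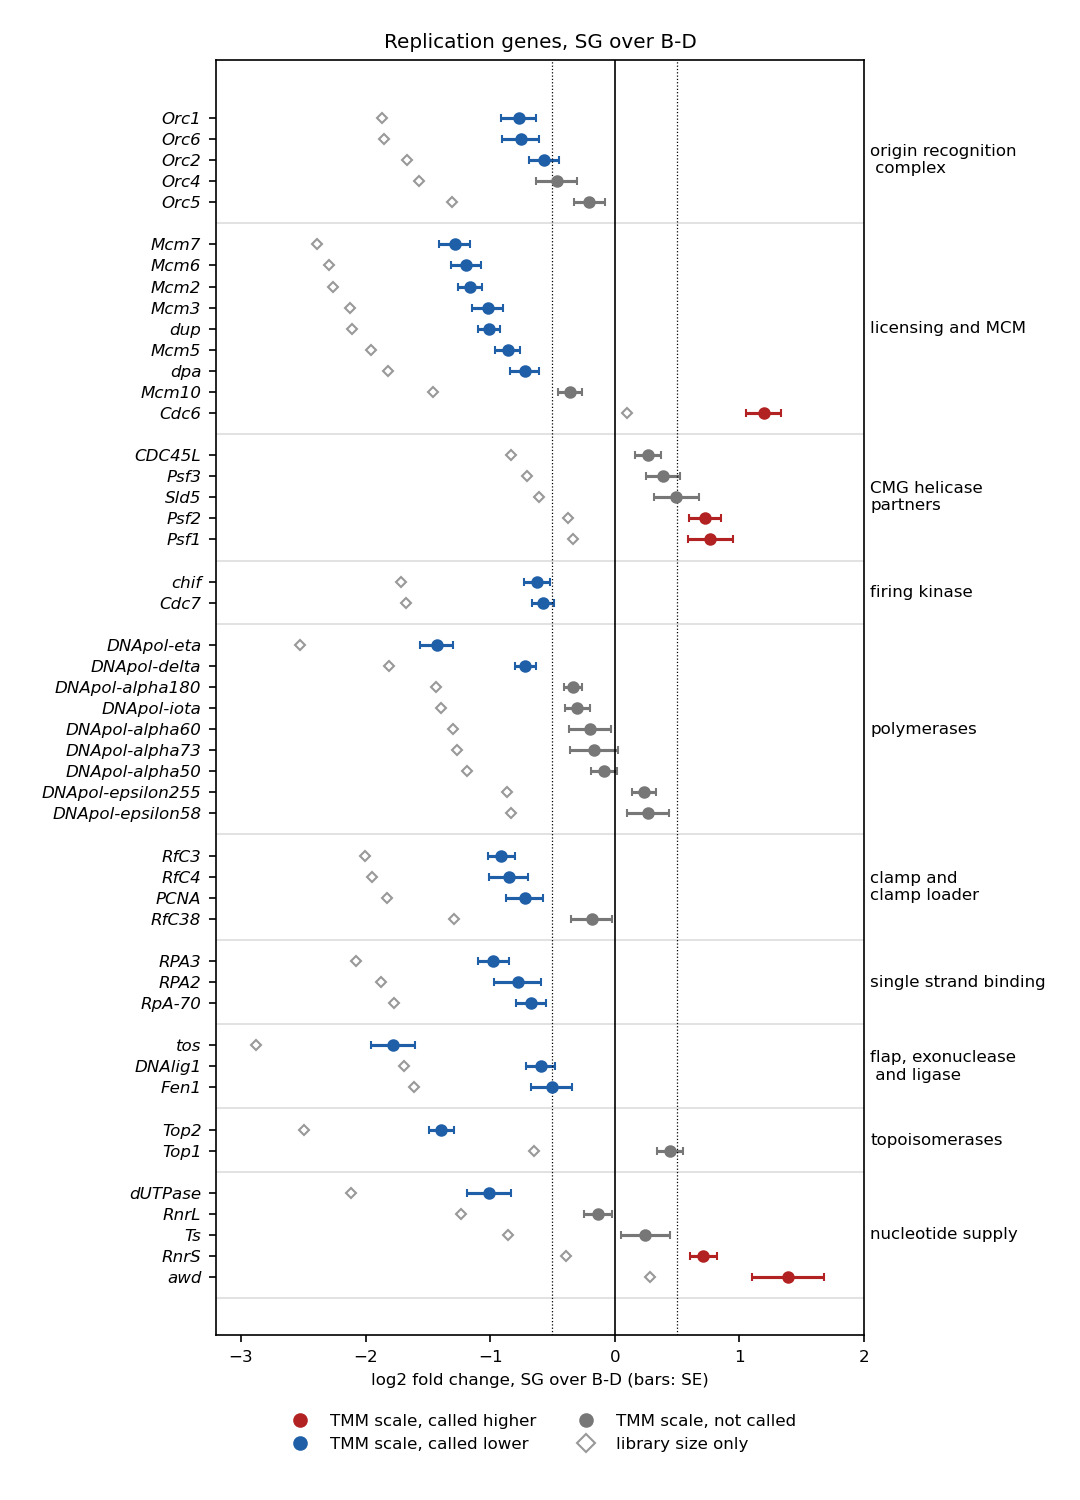
Log2 fold change of the 47 tested members, SG over B-D, by role; filled points are on the TMM scale with bars for the standard error, coloured by call, and open diamonds are with library size as the only scale. The 6 MCM subunits lie left of -0.5 and the 4 GINS subunits right of 0 on the TMM scale, while with library size alone the GINS subunits also lie left of 0.

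ORC marks the origins, and its subunits were moderately lower in SG. Of the 5 subunits counted, 3 (60%) were called lower, against 35.3% of all genes tested, and 2 were not called. The median log2 fold change of the 5 was -0.57. Orc1 is the largest subunit and an ATPase of the AAA+ family. It had 11.4, 9.55 and 12.7 scaled CPM in SG replicates 1 to 3, against 18.6, 20.9 and 18 in B-D, a log2 fold change of -0.77 ± 0.14 (SE, n = 3 per tissue, adjusted p = 0.00274). Orc6 (2R:9845458-9846485) had 5.53, 4.74 and 6.09 scaled CPM in SG against 9.47, 8.75 and 9.43 in B-D, a log2 fold change of -0.76 ± 0.15 (adjusted p = 0.00363). In neither gene did the tissues overlap. Orc2 was called lower at -0.57, and without SG replicate 3 it was -0.47 and no longer called. Orc4 was at -0.47 and Orc5 at -0.20, and both missed the fold threshold, but without SG replicate 1 Orc4 was at -0.63 and was called lower. Orc3 could not be read. It is the gene that the reference lists under the older name lat, all of its exon bases lie under another gene of the same strand, CG34315, and it had 0 reads in all 6 libraries.

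The genes that load the helicase split into a large lower set and a single higher one. Of the 9 licensing and MCM genes, 7 (77.8%) were called lower in SG, against 35.3% of all genes tested. Cdc6 (11.1%) was called higher, against 34.5% of all genes tested, and Mcm10 was not called. All 6 subunits of the MCM helicase were called lower, with log2 fold changes from -1.29 for Mcm7 to -0.72 for dpa, the Mcm4 gene, and a median of -1.09. Mcm2 (3R:8264970-8267924) had 41.5, 34.5 and 35.3 scaled CPM in SG against 83.5, 82.8 and 83.2 in B-D. The B-D libraries were within 1 scaled CPM of each other and well above all SG libraries. The log2 fold change of Mcm2 was -1.16 ± 0.10 (SE, adjusted p = 0.000137). Mcm7 (3L:8891596-8894310), the subunit with the lowest fold change, had 66.1, 57 and 49.7 scaled CPM in SG against 145, 142 and 134 in B-D. An antisense gene, asRNA:CR45871, covers 81.7% of the exon bases of Mcm7 on the opposite strand.

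The loader proteins Cdt1 and Cdc6 act together, but their transcripts went opposite ways. The dup gene (2R:15376619-15380988) had 36.2, 30.7 and 31.6 scaled CPM in SG against 66.2, 66 and 66 in B-D, a log2 fold change of -1.01 ± 0.09 (SE, adjusted p = 0.000184). Cdc6 (3L:8631509-8634069, no exon under another gene) had 21.6, 16.8 and 21.4 scaled CPM in SG against 8.71, 9.35 and 8.09 in B-D. Every SG library was above every B-D library, and the log2 fold change was 1.19 ± 0.14 (SE, adjusted p = 0.000462), 0.10 with library size alone. Mcm10, which acts when the loaded helicase is activated, was at -0.36 and below the fold threshold. The gene for geminin, the inhibitor of Cdt1, was also called lower, at -0.57, and was named after its value was seen.

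A ratio of 2 genes within a library does not depend on how the libraries are scaled. The pairs were chosen after the values were seen, and no test was run on them. Per kb of counted length, the Cdc6 to dup ratio was 0.754, 0.691 and 0.858 in SG against 0.166, 0.179 and 0.155 in B-D. Cdc6 over Orc1 was 2.41, 2.23 and 2.14 in SG against 0.596, 0.569 and 0.569 in B-D. So Cdc6 had more reads per length than Orc1 in each SG library and fewer in each B-D library.

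The partners that turn the MCM ring into the CMG helicase did not follow the MCM genes. On the TMM scale none of the 5 was called lower in SG, against 35.3% of all genes tested. Psf1 and Psf2, which both encode subunits of GINS, were called higher. They are 40% of the 5, near the 34.5% of all genes tested. With library size alone 0 were called higher, against 14.0% of all genes tested, and 3 were called lower, against 62.5%. Psf2 (2L:4386182-4387356) had 8.74, 7.94 and 8.24 scaled CPM in SG against 5.13, 4.68 and 5.29 in B-D, a log2 fold change of 0.72 ± 0.13 (SE, adjusted p = 0.00269) that was -0.38 with library size alone. Psf1 (3L:1246986-1247677) had 7.47, 5.42 and 5.83 scaled CPM in SG against 3.98, 3.42 and 3.61 in B-D, a log2 fold change of 0.77 ± 0.18 (adjusted p = 0.00875), or -0.33 with library size alone. For both genes the SG libraries were all above the B-D libraries. The other GINS subunits, Sld5 at 0.49 and Psf3 at 0.39, were under the fold threshold, and CDC45L was at 0.27. Without SG replicate 2 or SG replicate 3, Sld5 was at 0.56 and 0.62 and was called higher. CDC45L encodes Cdc45 and had 39.4, 33.1 and 33.6 scaled CPM in SG against 31.2, 28.8 and 28.2 in B-D. Its tissues did not overlap either, but the difference missed the adjusted p (0.0524).

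The gap between the GINS and the MCM transcripts can also be given as ratios within each library. These ratios come from the same counts as the fold changes and are not separate evidence. The median GINS level per kb was 0.578, 0.562 and 0.619 of the median MCM level in SG, against 0.176, 0.16 and 0.183 in B-D. CDC45L over Mcm7, also per kb, was 0.661, 0.643 and 0.748 in SG against 0.238, 0.225 and 0.232 in B-D. In both tissues the MCM genes were above the GINS genes, with medians of 14.5 to 18 scaled CPM per kb for MCM and 8.49 to 10.4 for GINS in SG, and 30.9 to 33.1 for MCM and 5.17 to 5.83 for GINS in B-D.

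**Figure D2:**
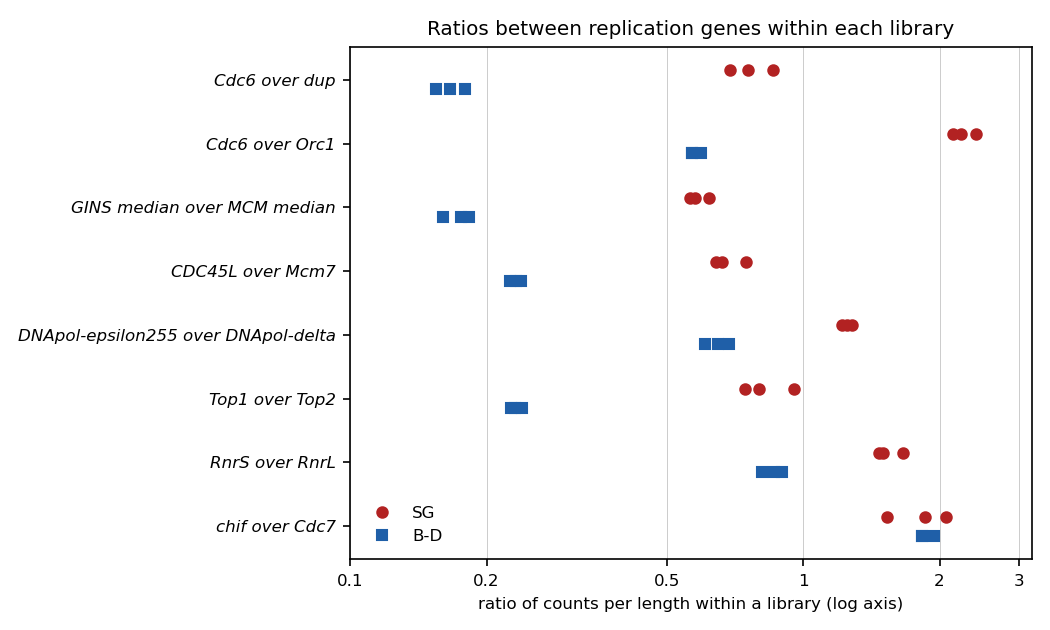
Ratios of counts per length between members within each library, on a log axis; each red circle is an SG library and each blue square a B-D library. Cdc6 over dup is 0.691 to 0.858 in SG and 0.155 to 0.179 in B-D, and chif over Cdc7 is the only ratio drawn in which the tissues overlap.

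The kinase that fires the licensed origins was lower in SG in both of its subunits. Cdc7, the catalytic subunit (X:6654541-6659709), had 21.9, 19.7 and 19.1 scaled CPM in SG against 29.3, 30.9 and 30.2 in B-D, a log2 fold change of -0.57 ± 0.09 (SE, adjusted p = 0.00144). The Dbf4-like activator chif (2L:16342430-16352628) had 83.6, 102 and 88.7 scaled CPM in SG against 134, 150 and 138 in B-D, a log2 fold change of -0.62 ± 0.10 (adjusted p = 0.00202). Both had non-overlapping tissues. With SG replicate 2 alone against B-D, chif was at -0.44 and lost its call. Per kb, chif over Cdc7 was 1.53, 2.07 and 1.86 in SG against 1.83, 1.94 and 1.83 in B-D, so the balance of the subunits overlapped. Of the chif exon bases, 19.5% lie under Hyls1 on the same strand, which lowers its level per kb alike in all libraries.

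The DNA polymerase genes had a median log2 fold change of -0.20. Of 10 polymerase genes, 2 were called lower in SG, which is 22.2% of those tested, against 35.3% of all genes tested. Another 7 were not called and 1, DNApol-gamma35, was not tested. DNApol-eta encodes a translesion polymerase, which copies past damaged bases, and lies at 3L:21938634-21941812. It had 5.18, 4.26 and 4.93 scaled CPM in SG against 12.3, 12.7 and 13.8 in B-D, a log2 fold change of -1.43 ± 0.13 (SE, adjusted p = 0.000208). DNApol-delta (3L:15984322-15987815), the catalytic subunit of the main lagging strand polymerase, had 20.5, 18.7 and 18.6 scaled CPM in SG against 32.6, 30.7 and 31.6 in B-D, a log2 fold change of -0.72 ± 0.08 (adjusted p = 0.000471). For both genes, all SG libraries were below all B-D libraries. DNApol-iota, another translesion polymerase, was at -0.30 and was not called.

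The replicative polymerases differed among themselves. The 4 polymerase alpha and primase subunits were at -0.34 to -0.09, and 0 of 4 were called by edgeR. Without adjustment 1 of the 4, DNApol-alpha180, was under 0.05 (adjusted p = 0.00737 by edgeR), and its fold change missed the threshold. DESeq2 and limma-voom also called 0 of these 4. With library size alone all 4 were called lower, against 62.5% of all genes tested, with a median of -1.285. With upper quartile scaling DNApol-alpha180 was at -0.52 and was called lower. The polymerase epsilon subunits DNApol-epsilon255 and DNApol-epsilon58 were at 0.23 and 0.27 on the TMM scale, without a call, and at -0.86 and -0.84 with library size alone, where both were called lower. DNApol-epsilon255, the catalytic subunit of the leading strand polymerase, had 52.2, 46.6 and 45 scaled CPM in SG against 42.1, 41.9 and 38.3 in B-D (adjusted p = 0.0589). Per kb, DNApol-epsilon255 over DNApol-delta was 1.28, 1.25 and 1.22 in SG against 0.648, 0.685 and 0.608 in B-D. The catalytic subunit of polymerase epsilon therefore had more reads per length than that of polymerase delta in each SG library and fewer in each B-D library. The smaller polymerase delta subunits, not members and chosen after their values were seen, were lower in SG for CG12018 (PolD2 in the reference), at -0.86 (adjusted p = 0.00407), and uncalled for Pol32, at -0.42.

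DNApol-gamma35 encodes the accessory subunit of the mitochondrial DNA polymerase and had 0 reads in all 6 libraries. All of its exon bases lie under another gene of the same strand, GatC, and Orc5 overlaps 6.1% of them on the opposite strand. Among protein-coding genes with at least 500 exon bases, all 304 whose exons lie entirely under genes of the same strand had 0 reads in all libraries. Among those entirely under genes of the opposite strand only, 3 of 55 did. Reads in same-strand overlaps were thus left uncounted and strand was kept, and the 0 of DNApol-gamma35 says nothing about its expression. Its catalytic partner tam, not a member and chosen after its value was seen, was at 0.51 (adjusted p = 0.0127) and at -0.59 with library size alone.

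The clamp and its loader were lower in SG. PCNA and 2 of the 3 RFC members, 75% of these 4 genes, were called lower, against 35.3% of all genes tested. RfC38 was not called, at -0.19. RfC3 (2L:10419190-10420612) had 11.2, 9.62 and 9.63 scaled CPM in SG against 19.4, 17.9 and 19.9 in B-D, a log2 fold change of -0.91 ± 0.11 (SE, adjusted p = 0.000532). RfC4 (3L:4134860-4136038) had 27.6, 21.9 and 18.9 scaled CPM in SG against 44.5, 39.6 and 39.3 in B-D, a log2 fold change of -0.85 ± 0.15 (adjusted p = 0.00288). Neither gene had overlapping tissues. PCNA (2R:20261754-20262883), the sliding clamp, had 62.9, 53.7 and 44.2 scaled CPM in SG against 94.6, 90.6 and 80.3 in B-D, a log2 fold change of -0.72 ± 0.15 (adjusted p = 0.00477). The large RFC subunit Gnf1, not a member and chosen after its value was seen, was also lower, at -0.72.

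Replication protein A coats the single-stranded DNA that the helicase exposes. All 3 of its subunit genes were called lower, against 35.3% of all genes tested. RPA3, the smallest subunit, had 11.8, 9.81 and 9.14 scaled CPM in SG against 20.1, 19.7 and 20.6 in B-D, a log2 fold change of -0.97 ± 0.12 (SE, adjusted p = 0.000632). RpA-70, the large DNA-binding subunit, had 107, 87.6 and 80.9 scaled CPM in SG against 149, 141 and 148 in B-D, a log2 fold change of -0.67 ± 0.12 (adjusted p = 0.00266). RPA2 lay between them, at -0.78. In all 3 genes the SG libraries were below the B-D libraries. RpA-70 lies at 3R:8262120-8264451, close beside Mcm2.

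The genes that process and seal Okazaki fragments were also lower. The largest decrease of any member was in tos (2L:18679631-18682075), which encodes an Exo1-type exonuclease that also works in mismatch repair. It had 2.75, 2.07 and 2.9 scaled CPM in SG against 9.03, 8.77 and 8.8 in B-D, a log2 fold change of -1.78 ± 0.18 (SE, adjusted p = 0.000254). DNAlig1 (2R:23890512-23893177), the replicative ligase, had 21.8, 18.8 and 17.5 scaled CPM in SG against 31.5, 27.8 and 28.5 in B-D, a log2 fold change of -0.60 ± 0.11 (adjusted p = 0.00364). The SG libraries were below the B-D libraries for both. Fen1, the flap endonuclease, was called lower at -0.51 (adjusted p = 0.0281), but this call sat at the threshold and was lost on leaving out any B-D library or SG replicate 3, with values of -0.50 to -0.34.

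The topoisomerases, which relieve the twist ahead of the fork, diverged. Top2 (2L:19447365-19453490), which passes double strands and also separates and compacts mitotic chromosomes, had 272, 228 and 234 scaled CPM in SG against 648, 628 and 648 in B-D. Its log2 fold change of -1.39 ± 0.10 (SE, adjusted p = 1e-04) had the smallest p-value of all members. Top1 (X:15319479-15328029), which cuts single strands and also serves transcription, had 241, 217 and 266 scaled CPM in SG against 174, 173 and 185 in B-D. Every SG library was higher for Top1, but at 0.44 ± 0.10 (adjusted p = 0.0079) it missed the fold threshold, and it was -0.65 and called lower with library size alone. Without SG replicate 2 or without B-D replicate 3, Top1 was at 0.54 and 0.51 and was called higher. Top1 over Top2 per kb was 0.745, 0.8 and 0.952 in SG against 0.226, 0.231 and 0.24 in B-D.

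Nucleotide supply genes were mixed, with 1 of 5 (20%) called lower, 2 (40%) called higher and 2 not called. Among all genes tested 35.3% were called lower and 34.5% higher. Ribonucleotide reductase makes deoxynucleotides and needs a large subunit, RnrL, and a small one, RnrS. RnrS (2R:11983145-11985393) had 145, 118 and 126 scaled CPM in SG against 82.3, 73.1 and 82.4 in B-D, a log2 fold change of 0.71 ± 0.11 (SE, adjusted p = 0.0013) that was -0.39 with library size alone. RnrL was at -0.13 and its tissues overlapped. Per kb, RnrS over RnrL was 1.5, 1.47 and 1.66 in SG against 0.862, 0.812 and 0.896 in B-D, so the small subunit transcript was above the large one in each SG library and below it in each B-D library.

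The dUTPase gene, whose product keeps uracil out of DNA, went the other way. It had 46.8, 37.7 and 29.3 scaled CPM in SG against 81.3, 75.7 and 72.4 in B-D, a log2 fold change of -1.01 ± 0.18 (SE, adjusted p = 0.00245). An antisense gene, asRNA:CR45778, covers all of its exon bases on the opposite strand. The nucleoside diphosphate kinase gene awd (3R:31745172-31746077) had 685, 603 and 340 scaled CPM in SG against 238, 215 and 169 in B-D. SG replicate 3 was well below the other SG libraries but above all B-D libraries, and the log2 fold change was 1.39 ± 0.29 (SE, adjusted p = 0.00492), 0.29 with library size alone. Ts, the thymidylate synthase gene, was at 0.25 with overlapping tissues.

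**Figure D3:**
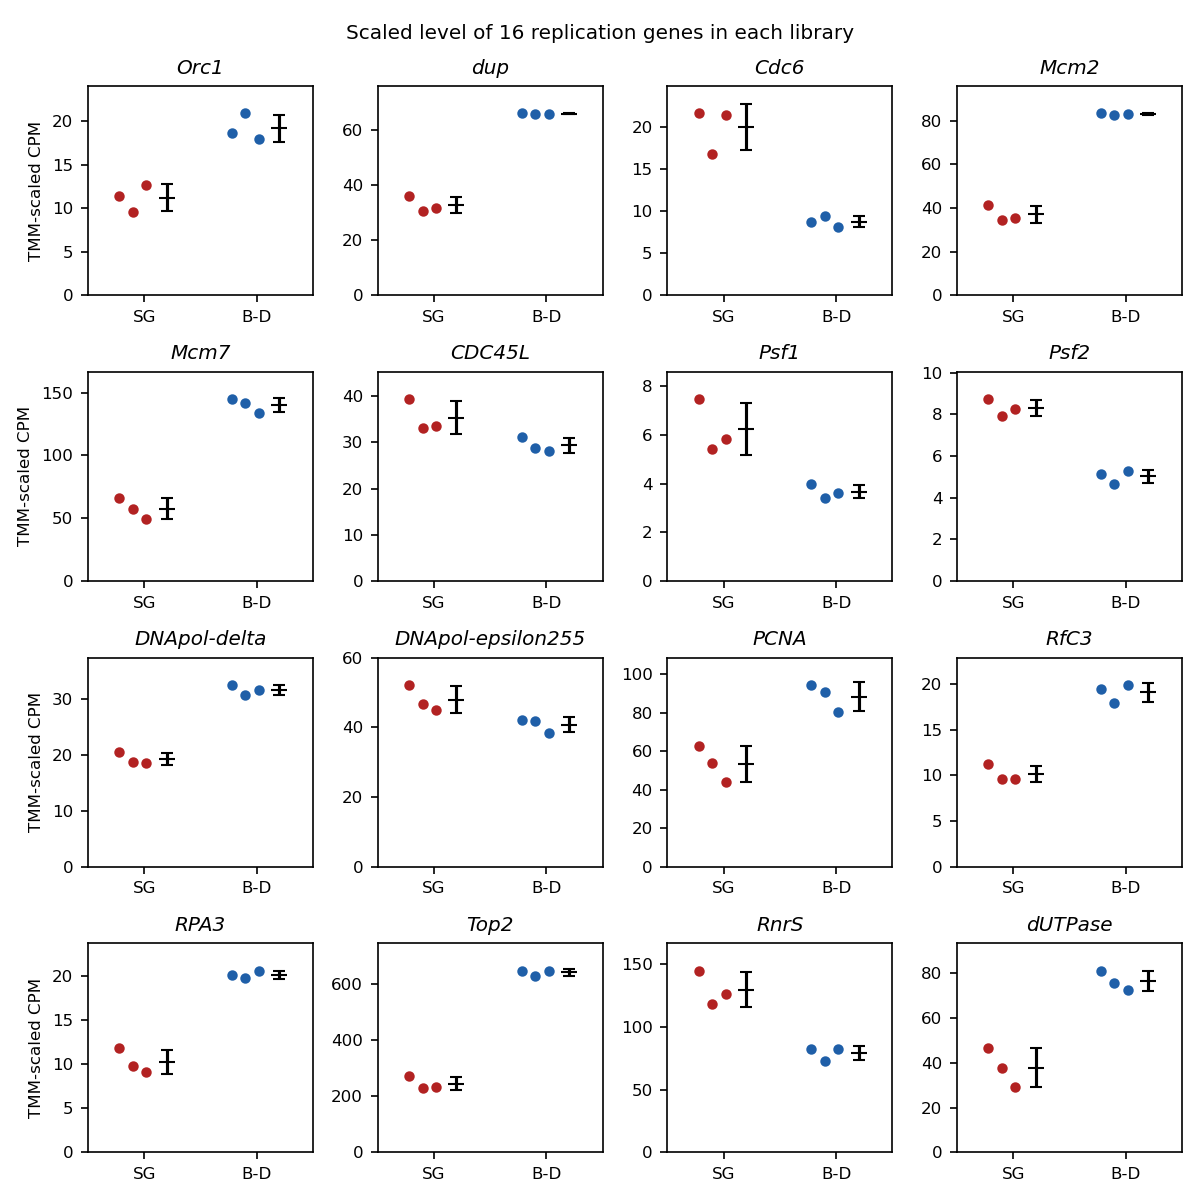
TMM-scaled CPM of 16 members in each library, SG at left in red and B-D at right in blue, with replicates 1 to 3 left to right in each tissue and black marks for the mean and SD (n = 3); each panel has its own axis from 0. Mcm2 is at 34.5 to 41.5 in SG and 82.8 to 83.5 in B-D, while Cdc6 is at 16.8 to 21.6 in SG and 8.09 to 9.35 in B-D.

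The order of abundance among the members was largely shared. Levels per kb in SG and B-D had a Spearman correlation of 0.887 across the 47 tested members, given as a description since the members are not independent. In SG awd was highest, at 747 ± 248 scaled CPM per kb (SD, n = 3), followed by RnrS at 81.5 ± 8.66, RnrL at 53 ± 7.06, PCNA at 50.1 ± 8.75 and Top2 at 46.7 ± 4.55. The spreads of RnrL, PCNA and Top2 overlapped, although RnrL was the highest of them in each SG library. In B-D the order below awd, which was at 285 ± 48.1, was Top2 at 122 ± 2.19, dUTPase at 92.8 ± 5.45 and PCNA at 82.7 ± 6.87. The spreads of the last 2 overlapped, although dUTPase was above PCNA in each B-D library. The largest gains in rank in SG were 17 places for Psf2, 16 for Psf1, 14 for Cdc6 and 13 for Sld5. The lowest level per kb in SG was that of tos, 1.08 ± 0.186, and the lowest in B-D was that of Psf3, 3.07 ± 0.267.

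**Figure D4:**
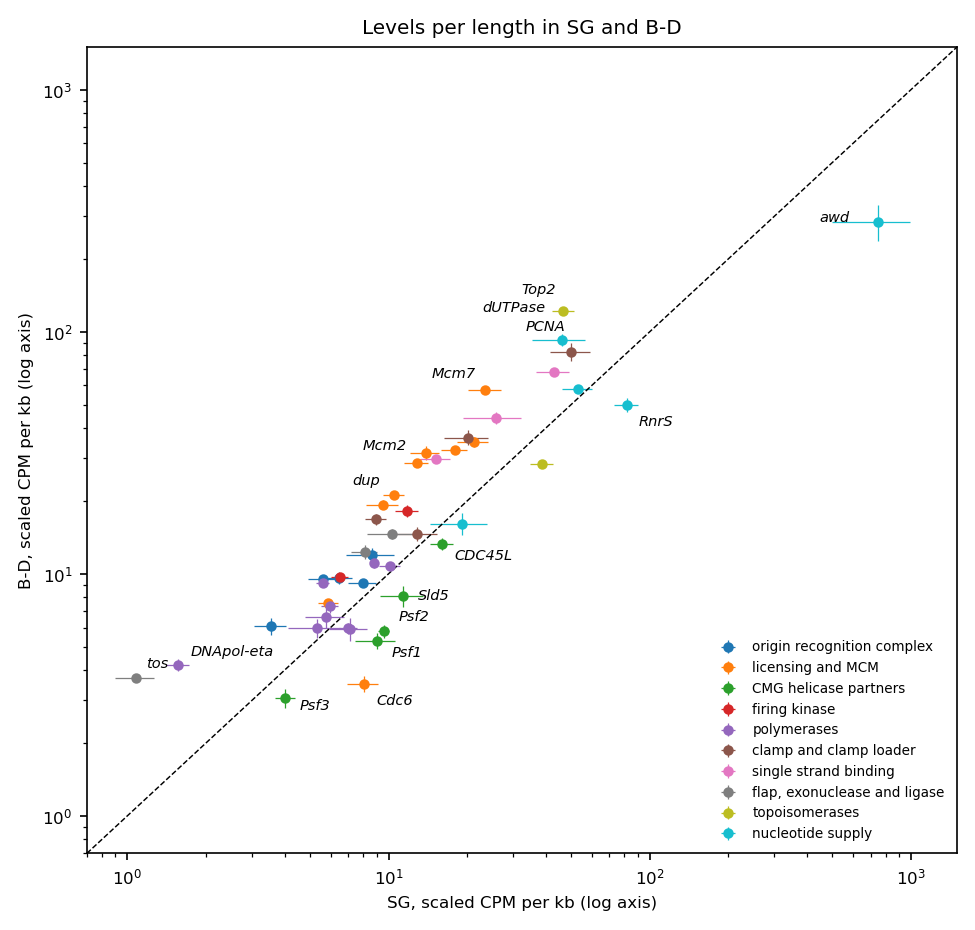
Mean level per kb of each tested member in SG and in B-D, both on log axes, with bars for the SD over 3 libraries and colours for the role; the dashed line marks equal levels. Most members lie above the line, among them Top2 (46.7 in SG, 122 in B-D), and Cdc6 (8.03 in SG, 3.51 in B-D), Psf1, Psf2 and RnrS lie below it.

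Replicates were more spread in SG. The median coefficient of variation of the members was 12.7% in SG and 5.42% in B-D, against 18.4% in SG and 8% in B-D over all genes tested. The tested members stood at a median of 74.9, 68.2 and 63.3% of their B-D mean in SG replicates 1 to 3. Summed over the members, scaled CPM came to 2717, 2365 and 2073 in SG against 3049, 2937 and 2886 in B-D, of which awd alone made up 340 to 685 in SG. Fat body markers summed to 255000, 204000 and 164000 scaled CPM in the same SG libraries, in the same order as the members, and salivary gland markers to 17500, 30500 and 67000, in the opposite order. The part of these tissues' transcripts in the spread of the members was not tested.

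Members that the study lists as E2F1-dependent, from earlier work on cultured cells, were mostly lower. Of these 21 members, 15 (71.4%) were called lower and 1, RnrS, was called higher, with a median log2 fold change of -0.76. The 26 other tested members had 10 lower calls (38.5%), 4 higher calls and a median of -0.32. Among all genes tested 35.3% were called lower and 34.5% higher. The share of lower calls in the other members was thus near that of all genes. The difference between the 2 sets of members was not tested. CDC45L, Sld5, RnrL, Ts and Orc5 are on the E2F1 list and were not called. Over the study's whole E2F1-dependent list, 74 genes (66.7%) were called lower and 12 (10.8%) higher, and the median was -0.85. Its smallest p-values were those of sle (-2.06) and Nnf1a (-2.87) among lower genes, and of UK114 (4.86) and glob1 (4.07) among higher genes.

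Other S phase genes, a list of 38 regulators and fork proteins outside the members, had a median log2 fold change of -0.20, nearer to 0 than that of the members, but a wider range of -2.92 to 0.93. Of 37 tested, 12 were called lower, 4 higher and 21 not called. The lower calls were 32.4% of the list, close to the 35.3% of all genes tested, and the higher calls were 10.8%, against 34.5% of all genes tested. CycE, which encodes the cyclin that drives S phase in both cycle types, had 31.7, 25.9 and 27.3 scaled CPM in SG against 69.4, 78.7 and 79.3 in B-D, a log2 fold change of -1.42 ± 0.11 (SE, adjusted p = 0.000118). Its inhibitor dap was at -2.45 ± 0.19 (adjusted p = 0.000116). Among higher genes the smallest p-value was that of cutlet, a Ctf18-type alternative clamp loader, at 0.93 ± 0.12 (adjusted p = 0.000754), which turned negative with library size alone, at -0.16. SuUR, which controls underreplication in polytene chromosomes, had 0 reads in all libraries and lies entirely under CG45101 on the same strand, so it could not be read.

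Mitotic genes were much lower than the replication genes. All 37 genes of a mitosis list were called lower in SG, against 35.3% of all genes tested, with a median log2 fold change of -3.34. The list was chosen with earlier results of these data known. The smallest p-values were those of Cap-H2, a condensin subunit, at -1.93, and scra, which encodes anillin, at -1.68. As a percentage of the B-D mean, the median mitotic gene was at 10.9, 5.71 and 14.6% in SG replicates 1 to 3, where the median replication gene was at 74.9, 68.2 and 63.3%. Neuron markers stood at a median of 5.01, 1.27 and 7.63% and disc markers at 12.5, 6.72 and 14.9% in the same libraries.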

How the data were processed

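RNA-Seq counts from 3 SG and 3 B-D libraries were analysed. After FastQC 0.11.5, the authors aligned reads to fly Release 6 using STAR 2.6.1a and counted them over exons with featureCounts, and they deposited whole-number counts per gene with a gene length. Columns of the authors' own DESeq2 1.14.1 comparison (fold changes and p-values) were not used. All rows named a gene.

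Groups were taken from sample titles. Counts were filtered with filterByExpr, scaled by TMM and tested with the quasi-likelihood test of edgeR 4.0.16 (R 4.3.3), tissue as the only term, with Benjamini-Hochberg adjustment over 11369 genes. DESeq2 1.42.0, limma-voom (limma 3.58.1), other scalings and filters, a replicate block and left-out libraries were alternatives. Scripts were tested on simulated data in which most genes did not differ between the tissues, so this did not test the choice of scale. Counts of replicates always differed beyond sampling noise (chi-square over its degrees of freedom, 40.7 to 581). Floors of 3 counts cover counting error only. The study describes the 3 replicates of each tissue as biological.

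Positions and overlaps come from the Release 6 annotation BDGP6.54, which held 45 of 48 members, all 45 with the same exon length as the deposited one. Orc1, RPA2 and RPA3 have no position here. No sequences are shown. Members and lists were chosen with earlier results of these data known. Values per library are given for the 2 members of each role with the smallest p, for every member called higher, and for Mcm7, CDC45L, PCNA and DNApol-epsilon255, added after their values were seen. From other lists, the 2 genes with the smallest p in each direction are named, except 1 that is not reported here.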

Additional observations from a re-analysis of the deposited data

How the results depend on the processing

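With library size as the only scale, 42 members were called lower and 0 higher, and their median log2 fold change was -1.67. On that scale 10 members changed sign: Top1 (-0.65), RnrS (-0.39), Ts (-0.86), CDC45L (-0.83), Psf3 (-0.71), Psf1 (-0.33), Psf2 (-0.38), Sld5 (-0.61), DNApol-epsilon58 (-0.84) and DNApol-epsilon255 (-0.86), as did cutlet (-0.16) and tam (-0.59). The median of all genes was -1.13 on this scale and -0.03 on the TMM scale, and which of these centres is right was not tested. With upper quartile scaling the members' median was -0.76 and that of all genes -0.22, with 28 members lower and 5 higher. Under every other scaling, filter or tool, 24 to 26 members were called lower and 5 or 6 higher, and DESeq2 and limma-voom both gave 25 and 5. Leaving out 1 library at a time gave 23 to 26 lower calls, 5 to 7 higher calls and medians of -0.63 to -0.47. DNApol-alpha73 was at -0.31 to 0.018 with 1 library left out, positive without SG replicate 3, and DNApol-alpha50 was at 0.063 with SG replicate 2 alone, both uncalled, and the cause was not tested. Outside library size alone, 37 of 47 members kept their direction and side of the thresholds in every setting, of which 22 were called lower, 5 higher and 10 not called. Same-numbered SG and B-D libraries had deviation correlations of 0.33, 0.0769 and 0.222. The tissues came from the same larvae, but no label states that equal numbers pair the libraries. The main test was left unpaired. SG replicate 3 correlated best with B-D replicate 2 (0.229), the others with their own number. With a replicate block, 25 members were called lower and 5 higher, and all 47 kept their calls.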
